A study of Rattus norvegicus with 3 samples.

Results

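The ephrin, Slit and netrin guidance genes were examined by single-nucleus RNA sequencing of the spinal cord lesion of adult rats. Genes were taken by symbol: the ephrin ligands (Efna and Efnb), the Eph receptors (Epha and Ephb), Slit1 to Slit3, Robo1 to Robo4, the netrins (Ntn), the Unc5 receptors and Dcc. The rule found 34 of the 17328 genes in the deposited matrices: 7 ephrins, 11 Eph receptors, 3 Slits, 4 Robo receptors, 4 netrins and 5 netrin receptors. In 26 of them at least 50 unique molecular identifiers (UMIs, each standing for 1 captured RNA molecule) were counted over the libraries together. The other 8 were at or near the floor of detection, and Robo4 had no UMI in any library.

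The 3 libraries came from wild-type SDrat animals of 17 weeks, at the epicentre of the lesion 49 days after injury. The first library was from cord that carried a scaffold releasing hepatocyte growth factor (HGF), the second from cord that carried the scaffold without HGF, and the last from cord with no treatment. Both scaffolds had been in place for 7 days. Each condition is 1 library and the number of animals in it is not given, so no difference below has a replicate check, and no p-value is given. The untreated cord had no implanting operation, so operation and material cannot be told apart.

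Ephrins are membrane-bound ligands that bind Eph receptor tyrosine kinases on a neighbouring cell, with signalling possible in both directions. Class A ephrins are held in the membrane by a lipid anchor, and class B ephrins span it. Slits are secreted proteins that repel growing axons through Robo receptors. Netrins attract axons through DCC and repel them through UNC5 receptors, alone or with DCC. In the injured cord these families are known for acting on regrowing axons, on astrocytes and meningeal fibroblasts at the lesion border, and on vessels.

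The promoter windows of Efna5, Slit3 and Epha3 are shown because these 3 genes were past 1.5-fold higher in fibroblast nuclei under the HGF scaffold relative to the scaffold alone, with at least 30 UMIs and an interval without 1. Each is the 250 bases before the RefSeq start on the GRCr8 assembly, 5′ to 3′ on the strand of the gene, and capitals mark the GC box GGGCGG, searched on both strands together with the TATA box TATAAA. The Efna5 window is chr9:110042188-110042437 on the minus strand, that of Slit3 is chr10:20075679-20075928 on the plus strand, and that of Epha3 is chr11:14920426-14920675 on the minus strand.
Efna5: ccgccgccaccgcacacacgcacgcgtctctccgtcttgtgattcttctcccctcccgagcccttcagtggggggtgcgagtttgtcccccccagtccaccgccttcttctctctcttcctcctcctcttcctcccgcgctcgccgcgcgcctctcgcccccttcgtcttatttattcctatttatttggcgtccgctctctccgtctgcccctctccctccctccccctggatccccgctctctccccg
Slit3: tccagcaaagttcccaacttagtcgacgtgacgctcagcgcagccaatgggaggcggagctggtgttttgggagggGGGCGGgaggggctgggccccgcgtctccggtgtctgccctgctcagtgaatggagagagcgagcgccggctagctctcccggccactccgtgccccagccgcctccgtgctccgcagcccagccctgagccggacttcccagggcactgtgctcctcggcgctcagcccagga
Epha3: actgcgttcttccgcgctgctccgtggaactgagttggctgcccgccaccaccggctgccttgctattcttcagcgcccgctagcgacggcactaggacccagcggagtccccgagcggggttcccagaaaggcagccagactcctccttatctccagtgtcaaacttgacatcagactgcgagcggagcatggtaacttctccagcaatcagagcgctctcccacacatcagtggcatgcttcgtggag
The Slit3 window held 1 GC box, and the Efna5 and Epha3 windows held none. GC bases made up 64.8% of the Efna5 window, 69.2% of the Slit3 window and 60.4% of the Epha3 window. Over the 33469 windows of this length in the RefSeq table, 30.5% held a GC box and 12.9% a TATA box. Among the 27 guidance genes with a window, 13 held a GC box and 0 a TATA box. Efnb3, Epha4, Ntn1, Slit1, Slit2, Unc5c and Unc5d were not matched.

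After filtering, 899 nuclei remained under the HGF scaffold, 2130 under the scaffold and 2207 in untreated cord, from libraries of 1450757, 5791715 and 5953189 UMIs. The HGF scaffold library was the shallowest, and its intervals are the widest. Lineages were named by marker genes. The lineage with a gene's highest level in a library was taken among named lineages of at least 50 nuclei there. In each named lineage at least 9 markers of its list stood above their level in other nuclei, or 6 of 6 for ependymal cells and skeletal muscle. Microglia or macrophages made up 46.1% of nuclei under the HGF scaffold, 25.6% under the scaffold and 11.6% in untreated cord. Fibroblasts made up 11.1%, 16.7% and 29.8% of nuclei in the same libraries. A deep cluster of macrophage and endothelial markers stayed unnamed, and it had 33 nuclei under the HGF scaffold, 118 under the scaffold and 2 in untreated cord. The scaffold and untreated libraries shared 3 cell barcodes, the HGF scaffold and scaffold libraries 1, and the HGF scaffold and untreated libraries 0. Levels are summed UMIs as CPM, scaled to the library's or lineage's total, ratios carry exact 95% intervals for counting error only, and UMIs of a PCR-amplified library are counted once per molecule.

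Summed over all nuclei, guidance genes were mostly lower under the scaffold than in untreated cord. A gene was counted as past the fold when its CPM ratio lay over 1.5-fold from that of the median gene, among genes with at least 20 UMIs in the 2 libraries together. Of 29 guidance genes measured so, 17 were past it lower, against 15.3% of all genes, and 1 was past it higher, against 13.5%. That gene was Efna2, and 27 of the 29 lay below the median gene. The median guidance gene had a centred log2 ratio of -0.67. By family, 7 of 10 Eph receptors, both Robo receptors, both netrins, 3 of 5 netrin receptors, 2 of 7 ephrins and 1 of 3 Slits were past the fold lower.

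The lineage make-up of the libraries moved with these sums, in which fewer nuclei of a type and less RNA per nucleus cannot be told apart. When the untreated library's lineage make-up was given to both libraries, 10 of 29 were past the fold lower, against 10.2% of all genes, and 1 was past it higher, against 10.9%. Among the 26 genes with 50 UMIs, those still past it lower were Efna5, Efnb3, Epha3, Epha4, Ephb1, Ntn1, Ntn4, Slit2 and Unc5d. Without microglia or macrophages and unnamed nuclei, the count was also 10 lower, against 10.2% of all genes, and 2 higher, against 10.4%.

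The HGF scaffold library was set against the scaffold and the untreated library in the same way. Against the scaffold library, 11 of 28 guidance genes were past 1.5-fold lower, against 12.4% of all genes, and 3 (Efna1, Efnb3 and Epha2) were past it higher, against 7.19%. The higher genes rest on low counts, 25, 11 and 18 UMIs under the HGF scaffold against 59, 26 and 33 under the scaffold. The intervals of Efna1 and Efnb3 reached 1. Among the lower genes were Dcc, Unc5c, Unc5d, Slit1 and Robo2. With the lineage make-up of the scaffold library given to both, 1 was lower (Efna2), against 9.77%, and 7 were higher (Efna1, Efna5, Efnb3, Epha10, Epha2, Ntn4 and Unc5d), against 9.95%. Without microglia or macrophages and unnamed nuclei, 7 of the 26 genes with 50 UMIs were lower, against 14.0% of all genes with 20 UMIs. They were Dcc, Efna2, Epha10, Epha5, Ephb2, Robo2 and Slit1. In that setting 4 of the 26 were higher (Efna5, Efnb3, Epha2 and Epha3), against 10.2%. Neurons gave 5.02% of the UMIs under the HGF scaffold, against 20.02% under the scaffold and 21.8% in untreated cord. The HGF scaffold neurons numbered 33, so the neuronal part of its make-up results rests on few nuclei. Against the untreated library, 23 of 29 were past the fold lower, against 22.5% of all genes, and 0 were past it higher, against 17.6%. With the untreated make-up given to both, 6 were lower, against 15.3%, and 2 were higher (Efna1 and Efnb3), against 13.9%. The HGF scaffold and scaffold libraries are each set against the same untreated library, so those sets of ratios are not independent.

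**Figure D1:**
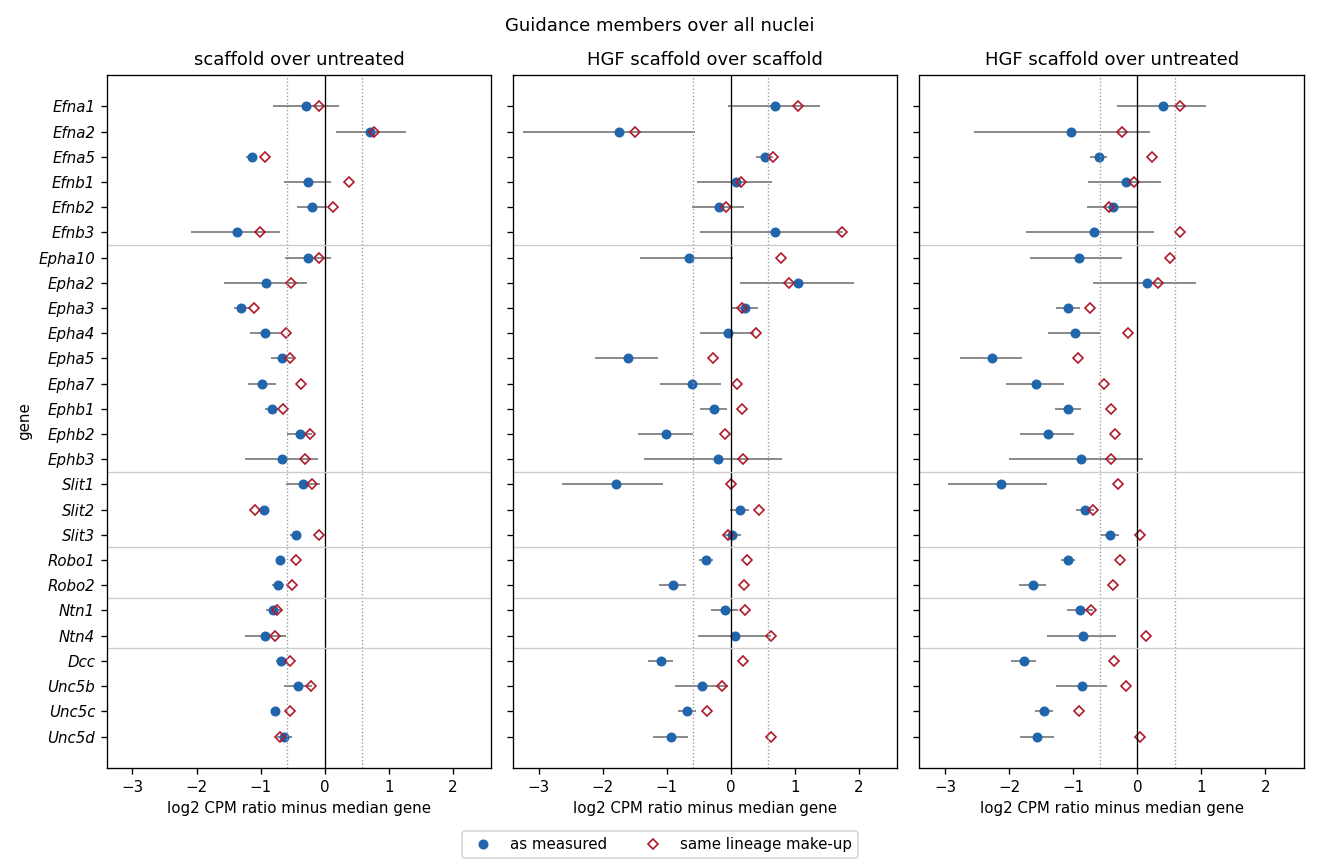
Log2 CPM ratio of 26 guidance genes over all nuclei, minus that of the median gene, for scaffold over untreated, HGF scaffold over scaffold and HGF scaffold over untreated. Filled points are the measured ratios with 95% intervals, open diamonds give both libraries the same lineage make-up, and dotted lines stand at 1.5-fold. Most points lie left of 0 in the first and last panels, and the diamonds of HGF scaffold over scaffold lie to the right of their points for Dcc, Robo2, Slit1 and Unc5d. The neuronal part of the HGF scaffold diamonds rests on 33 nuclei.

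Among the ephrin ligands, Efna5, a class A ephrin known for repelling axons in topographic maps, differed between all 3 libraries. Over all nuclei it stood at 414 CPM under the HGF scaffold, 283 CPM under the scaffold and 602 CPM in untreated cord. The scaffold level was 0.47 (0.442 to 0.498) times the untreated level, and the HGF scaffold level was 1.46 (1.33 to 1.61) times the scaffold level and 0.688 (0.629 to 0.751) times the untreated level. With the untreated lineage make-up given to both, the centred log2 ratio of HGF scaffold over untreated was 0.22, against -0.60 as measured. Neurons had its highest level in the scaffold and untreated libraries, 2.03 (1.73 to 2.4) and 2.11 (1.96 to 2.28) times that of fibroblasts, the next lineage. Under the HGF scaffold, where neurons were too few to compare, fibroblasts held 58.8% of the library's Efna5 UMIs, against 11.1% under the scaffold and 28.5% in untreated cord.

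Efnb2, the class B ephrin of arterial endothelium, stood at 45.3 CPM under the HGF scaffold, 50.9 CPM under the scaffold and 56.3 CPM in untreated cord. The libraries did not separate: the scaffold over untreated ratio was 0.903 (0.767 to 1.06). Endothelial nuclei had the highest Efnb2 level in every library, 4.4 (2.69 to 7.45) times that of fibroblasts under the scaffold and 3.72 (2.81 to 4.96) times in untreated cord. Efnb1, a class B ephrin of connective tissue, stood at 23.0, 21.4 and 24.9 CPM under the HGF scaffold, under the scaffold and in untreated cord, with fibroblasts highest in every library but not separate from Schwann cells under the scaffold (1.79, 0.754 to 5.15) or in untreated cord (1.7, 0.747 to 4.79). Efnb3, the class B ephrin of the midline and of myelin, had 7.66 CPM under the HGF scaffold, 4.67 CPM under the scaffold and 11.7 CPM in untreated cord, and its scaffold over untreated ratio was 0.4 (0.244 to 0.638). Efna1, known from vessels, stood at 17.4, 10.6 and 12.6 CPM in the same order of libraries, and its HGF scaffold over scaffold interval reached 1 (1.64, 0.985 to 2.66). Efna2 was the ephrin past the fold higher under the scaffold, at 13.8 CPM against 8.2 CPM in untreated cord (1.69, 1.16 to 2.48), while the HGF scaffold library had 4.18 CPM from 6 UMIs. It was highest in oligodendrocyte nuclei, at 33.2 CPM under the scaffold and 22.2 CPM in untreated cord, but did not separate there from the next lineage (1.14, 0.487 to 2.88, and 1.72, 0.502 to 9.11).

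Most Eph receptors were lower under the scaffold, and their highest levels lay in different lineages. Epha3, a receptor of class A ephrins that is known from mesenchyme, stood at 173 CPM under the HGF scaffold, 146 CPM under the scaffold and 349 CPM in untreated cord. Its scaffold over untreated ratio was 0.418 (0.385 to 0.454), and the HGF scaffold over untreated ratio was 0.495 (0.432 to 0.565). Epha3 was highest in fibroblasts in every library, 2.57 (1.58 to 4.44) times the Schwann cell level under the scaffold and 2.76 (2.37 to 3.23) times the endothelial level in untreated cord. Epha7, a receptor of the same class, was highest in fibroblasts in every library too. It stood at 31.3, 47.1 and 89.8 CPM under the HGF scaffold, under the scaffold and in untreated cord, with a scaffold over untreated ratio of 0.524 (0.45 to 0.61).

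Epha4, a receptor that takes ephrins of both classes and is known for limiting axon regrowth, stood at 41.1 CPM under the HGF scaffold, 41.9 CPM under the scaffold and 77.3 CPM in untreated cord. The 2 scaffold libraries lay together, and the scaffold was 0.542 (0.461 to 0.637) times the untreated level. Its fibroblast and astrocyte levels were within counting error of each other, at 93.1 and 92.6 CPM under the scaffold and at 106 CPM in each in untreated cord. Epha5, a receptor of class A ephrins in neurons, stood at 27.2 CPM under the HGF scaffold, 81.6 CPM under the scaffold and 125 CPM in untreated cord, and its ratios of scaffold over untreated (0.652, 0.578 to 0.734) and HGF scaffold over scaffold (0.333, 0.233 to 0.462) were both past the fold. With the lineage make-up of the library under the ratio given to both, neither was past the fold, though the HGF scaffold neurons numbered 33. Without microglia or macrophages and unnamed nuclei, the ratio of HGF scaffold over scaffold still was. Astrocyte and neuron levels of Epha5 did not separate, at 262 and 225 CPM under the scaffold and at 409 and 406 CPM in untreated cord.

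Ephb1, a class B receptor, was highest in oligodendrocyte precursors. It stood at 159 CPM under the HGF scaffold, 187 CPM under the scaffold and 320.4 CPM in untreated cord, and its scaffold over untreated ratio was 0.585 (0.541 to 0.631). Its precursor level was 1.78 (1.49 to 2.12) times that of neurons under the scaffold and 1.75 (1.54 to 1.99) times in untreated cord. Ephb2, the class B receptor best known from synapses, was highest in neurons, at 215 CPM under the scaffold and 222 CPM in untreated cord. Over all nuclei Ephb2 had 36.9 CPM under the HGF scaffold, 73.0 CPM under the scaffold and 92.8 CPM in untreated cord. The low Eph genes were Epha2, Epha10 and Ephb3. Epha2 had 12.5, 5.93 and 10.8 CPM under the HGF scaffold, under the scaffold and in untreated cord, and its HGF scaffold over scaffold ratio was 2.11 (1.12 to 3.86). Epha10, a kinase-dead member of the family, was highest in neurons, at 68.3 CPM under the scaffold and 68.8 CPM in untreated cord. Ephb3 had 6.96, 7.91 and 12.2 CPM over all nuclei of the HGF scaffold, scaffold and untreated libraries.

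The 3 Slits differed in lineage. Slit1 was a neuronal gene here: neurons held 87.3% of its UMIs under the scaffold and 94.4% in untreated cord, at a level 10.0 (5.16 to 22.3) and 38.7 (18.5 to 97.3) times that of the next lineage. Its level over all nuclei was 11.1 CPM under the HGF scaffold, from 16 UMIs, 38.1 CPM under the scaffold and 46.7 CPM in untreated cord. Slit2 was highest in Schwann cells among named lineages, 2.22 (1.7 to 2.89) times the fibroblast level under the scaffold and 2.29 (1.99 to 2.62) times in untreated cord. Over all nuclei it stood at 340.5 CPM under the HGF scaffold, 304 CPM under the scaffold and 571 CPM in untreated cord. The scaffold was 0.533 (0.502 to 0.565) times and the HGF scaffold 0.596 (0.541 to 0.656) times the untreated level. Slit3, known from mesenchyme and vessels, differed less, at 359 CPM under the HGF scaffold, 348 CPM under the scaffold and 461 CPM in untreated cord. Its scaffold over untreated ratio of 0.756 (0.712 to 0.802) was not past the fold. Among lineages of at least 50 nuclei, fibroblasts led under the scaffold, at 785 CPM against 641 CPM in endothelium. In untreated cord Schwann cells and endothelium did not separate, at 865 and 861 CPM. Mural nuclei, too few to rank, stood higher, at 2075 CPM (1711 to 2492) in 19 scaffold nuclei and 2805 CPM (2125 to 3635) in 14 untreated nuclei.

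Robo1 and Robo2 were highest in neurons or astrocytes. Robo1, a main Slit receptor of axons, stood at 548 CPM under the HGF scaffold, 708 CPM under the scaffold and 1107 CPM in untreated cord. Its scaffold over untreated ratio was 0.639 (0.614 to 0.665), and the HGF scaffold over scaffold ratio was 0.774 (0.716 to 0.836). Neurons had its highest level, with fibroblasts close behind: the neuron over fibroblast ratio was 1.17 (1.06 to 1.29) under the scaffold and 1.34 (1.26 to 1.42) in untreated cord. Robo2, which acts beside Robo1 in steering axons, stood at 149.7 CPM under the HGF scaffold, 276 CPM under the scaffold and 443 CPM in untreated cord. Astrocytes led under the scaffold, at 837 CPM against 696 CPM in neurons (1.2, 1.03 to 1.4), and neurons in untreated cord, at 1026 CPM against 945 CPM in astrocytes (1.08, 0.938 to 1.26).

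Ntn1, a secreted netrin, was highest in oligodendrocyte precursors among named lineages. Over all nuclei it stood at 159 CPM under the HGF scaffold, 167 CPM under the scaffold and 282 CPM in untreated cord. The scaffold was 0.591 (0.545 to 0.641) times the untreated level, and the HGF scaffold library did not separate from the scaffold library (0.952, 0.82 to 1.1). The precursor level of Ntn1 was 1.81 (1.41 to 2.34) times that of fibroblasts under the scaffold and 2.33 (2 to 2.71) times in untreated cord. Ntn4, a netrin of basement membranes, stood at 24.4 CPM under the HGF scaffold, 22.8 CPM under the scaffold and 42.0 CPM in untreated cord, with a scaffold over untreated ratio of 0.543 (0.435 to 0.676).

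Dcc, the netrin receptor that draws axons toward netrin, stood at 163 CPM under the HGF scaffold, 343 CPM under the scaffold and 532 CPM in untreated cord. The scaffold over untreated ratio was 0.645 (0.608 to 0.683), and the HGF scaffold over scaffold ratio was 0.475 (0.413 to 0.545). The centred log2 ratio of HGF scaffold over scaffold was 0.19 with the scaffold library's lineage make-up given to both, against -1.10 as measured. The neuronal part of the 0.19 rests on 33 HGF scaffold neurons, 1 of which held 44.2% of their Dcc UMIs. Neurons held 64.9% of its UMIs under the scaffold and 71.9% in untreated cord, and oligodendrocyte precursors came next. A Dcc UMI was seen in 73.5% of scaffold neurons and 82.4% of untreated neurons, at median depths of 4394 and 5673 UMIs. The same share in microglia or macrophages, which should lack the gene, was 15.2% under the scaffold and 10.2% in untreated cord, at median depths of 1720 and 799.5 UMIs.

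The UNC5 receptors, which turn the netrin response into repulsion, differed among themselves in lineage. Unc5c was highest in oligodendrocytes in every library, 1.69 (1.48 to 1.93) times the precursor level under the scaffold and 1.67 (1.52 to 1.83) times in untreated cord. Over all nuclei it stood at 345 CPM under the HGF scaffold, 544 CPM under the scaffold and 903 CPM in untreated cord, and each pair of libraries had a ratio interval without 1. Unc5d was a neuronal gene, with a level 3.92 (2.92 to 5.37) times that of fibroblasts under the scaffold and 5.52 (4.7 to 6.5) times in untreated cord. Over all nuclei it had 89.1 CPM under the HGF scaffold, 168 CPM under the scaffold and 251 CPM in untreated cord. Unc5b, the UNC5 of vessels, stood at 41.8, 55.9 and 72.5 CPM in the HGF scaffold, scaffold and untreated libraries. Its oligodendrocyte and endothelial levels did not separate, at 140.1 and 124 CPM under the scaffold and at 167 and 178 CPM in untreated cord.

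**Figure D2:**
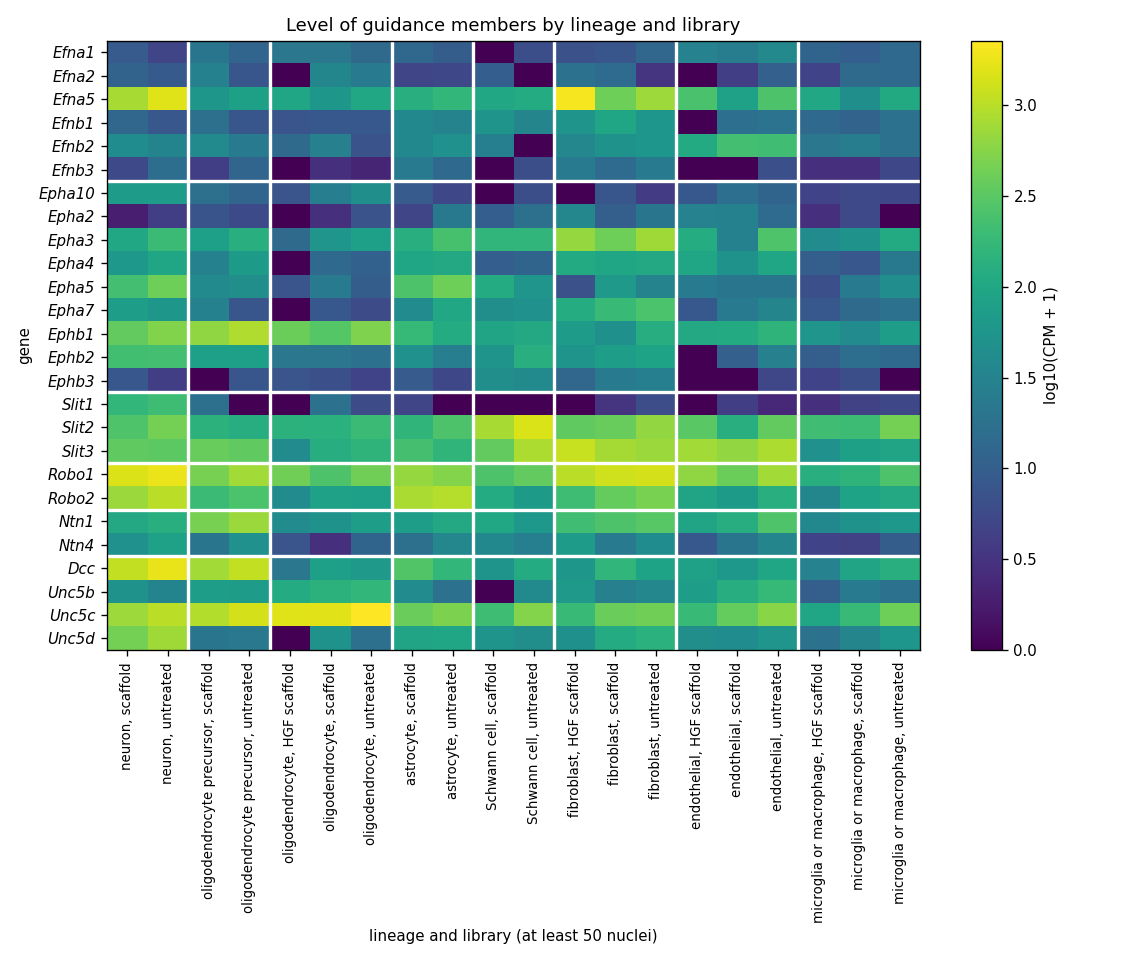
Level of 26 guidance genes, as log10(CPM + 1), in each lineage and library with at least 50 nuclei. Lighter, yellower cells are higher: in the neuron columns Dcc, Efna5, Slit1 and Unc5d stand above most other columns, in the oligodendrocyte columns Unc5c, in the endothelial columns Efnb2, and in the fibroblast columns Epha3 and Epha7.

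Of the 26 genes, 21 had their highest level in the same lineage in the scaffold and untreated libraries. In 7 of them the same lineage was highest in all 3 libraries, but the HGF scaffold library had only 4 lineages of at least 50 nuclei. That count of 7 depends on how the nuclei were classed: it was 2 at Leiden resolution 0.5 and 3 at resolution 2.

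Within lineages the scaffold was again set against untreated cord, in the 8 lineages with at least 50 nuclei in both libraries. Over these lineages, 64 of 141 measurements of a guidance gene were past the fold lower, against 15.2% of those of all genes, and 12 were past it higher, against 16.7%. Epha3 was past it lower in 7 of 8 lineages, Slit2 and Unc5c in 6 of 8 each, Efna5 and Ephb1 in 5 of 8 each, and Efnb2 in 0 of 7. In the 7 lineages other than microglia or macrophages, the summed level of the lineage's own markers under the scaffold was 0.567 to 0.966 times that in untreated cord, and the summed level of 16 macrophage markers was 1.86 to 5.37 times. The part of these shifts in the results below was not tested.

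Neuronal nuclei, 189 under the scaffold and 148 in untreated cord, had 12 of 24 guidance genes past 1.5-fold lower, against 12.2% of all genes, and 0 past it higher, against 16.3%. The median guidance gene had a centred log2 ratio of -0.56. Dcc stood at 1111 CPM under the scaffold and 1754 CPM in untreated cord, a ratio of 0.633 (0.59 to 0.679). Efna5 stood at 828 CPM under the scaffold and 1549.6 CPM in untreated cord (0.534, 0.494 to 0.578). Both the attractive netrin receptor and this repellent ephrin were thus at lower levels in scaffold neurons. Epha5 had 225 CPM under the scaffold against 406 CPM in untreated cord (0.554, 0.474 to 0.645), and Unc5d had 447 CPM against 749.6 CPM (0.597, 0.534 to 0.666). The Slit receptors differed less: Robo2 had 696 CPM under the scaffold against 1026 CPM in untreated cord (0.679, 0.62 to 0.743), and Robo1 had 1505 CPM against 1826 CPM (0.824, 0.773 to 0.878). Slit1, with 166 CPM under the scaffold and 202 CPM in untreated cord, was not past the fold (0.821, 0.675 to 0.996), nor was Ephb2, with 215 CPM against 222 CPM (0.969, 0.811 to 1.16). Among genes with at least 30 UMIs there, Epha3 had the lowest ratio, at 99.7 CPM under the scaffold against 190.4 CPM in untreated cord (0.524, 0.414 to 0.659), but its centred log2 ratio of -1.10 was -0.38 with nuclei named by their highest marker score. Neuronal markers summed to 0.729 times and macrophage markers to 4.29 times their untreated level in the same nuclei. The HGF scaffold library had 33 neurons, and 44.2% of their Dcc UMIs came from 1 nucleus, so no ratio is given.

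Oligodendrocyte precursors, 99 under the scaffold and 129 in untreated cord, had 8 of 16 guidance genes past the fold lower, against 17.3% of all genes, and 1 higher, against 19.6%. The genes that mark these nuclei among the families were lower together. Ephb1 had 624 CPM under the scaffold against 911 CPM in untreated cord (0.685, 0.573 to 0.815), and Ntn1 had 469 CPM against 696 CPM (0.673, 0.548 to 0.823). Dcc had 782 CPM under the scaffold against 1096 CPM in untreated cord (0.713, 0.609 to 0.835), so ligand and receptor of the netrin pair were both lower. Unc5c had 937 CPM under the scaffold against 1353 CPM in untreated cord (0.693, 0.6 to 0.799). Robo1 had 456 CPM under the scaffold against 768 CPM in untreated cord (0.593, 0.484 to 0.725), and its centred log2 ratio of -0.89 was 0.00 with nuclei named by highest marker score. Slit3 was level, with 372 CPM under the scaffold and 339.9 CPM in untreated cord. Precursor markers summed to 0.673 times and macrophage markers to 4.06 times their untreated level.

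**Figure D3:**
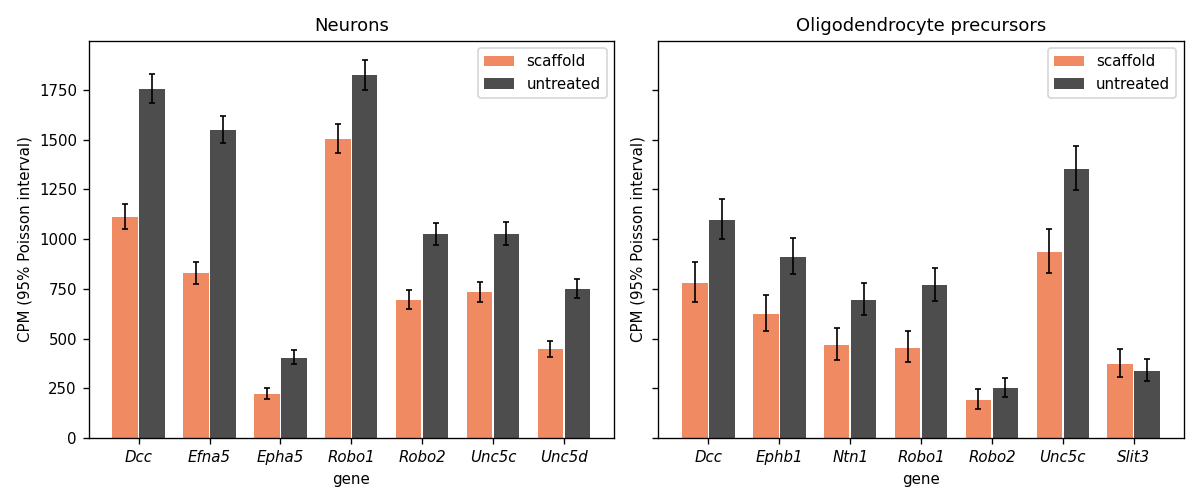
CPM of guidance genes in neuronal nuclei and in oligodendrocyte precursors, scaffold library beside untreated library, with 95% Poisson intervals. The scaffold bars of Dcc, Efna5, Epha5 and Unc5d in neurons, and of Dcc, Ephb1, Ntn1, Robo1 and Unc5c in precursors, lie below their untreated bars, and Slit3 in precursors is level.

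Oligodendrocytes, 190 under the scaffold and 232 in untreated cord, had 7 of 18 guidance genes past the fold lower, against 12% of all genes, and 3 higher, against 17.0%. Unc5c, which was highest in this lineage, had 1582 CPM under the scaffold against 2255 CPM in untreated cord (0.701, 0.646 to 0.761). Ephb1 had 297 CPM under the scaffold against 510.4 CPM in untreated cord (0.581, 0.482 to 0.699). Unc5d was higher, with 51.6 CPM under the scaffold against 16.1 CPM in untreated cord (3.21, 1.61 to 6.76), far under its neuronal level in both libraries. Astrocytes, 198 and 175 in the scaffold and untreated libraries, had 4 of 15 genes past the fold lower, against 13.9% of all genes, and 2 higher, against 15.7%. Epha7 had 40.3 CPM under the scaffold, from 10 UMIs, against 101 CPM in untreated cord, from 23 UMIs (0.398, 0.169 to 0.87). Of the untreated Epha7 UMIs, 34.8% came from 1 nucleus. Epha5 had 262 CPM under the scaffold against 409 CPM in untreated cord (0.64, 0.459 to 0.888). Dcc was higher in scaffold astrocytes, with 274 CPM against 167 CPM in untreated ones (1.64, 1.09 to 2.51). Of its 68 UMIs in scaffold astrocytes, 32.4% came from 1 nucleus. Robo2 was close, with 837 CPM under the scaffold against 945 CPM in untreated cord. Schwann cells, 73 and 120 nuclei in the scaffold and untreated libraries, had 5 of 12 genes past the fold lower, against 20% of all genes, and 3 higher, against 19.4%. Their leading guidance gene Slit2 had 829 CPM under the scaffold against 1473 CPM in untreated cord (0.563, 0.44 to 0.715). Slit3 had 347 CPM under the scaffold against 865 CPM in untreated Schwann cells (0.402, 0.275 to 0.573). Macrophage markers summed to 3.43 times their untreated level in oligodendrocytes, 1.86 times in astrocytes and 5.37 times in Schwann cells.

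Endothelial nuclei, 119 under the scaffold and 199 in untreated cord, had 13 of 19 guidance genes past the fold lower, against 16.3% of all genes, and 0 higher, against 14.5%. The lower ones numbered 7 when each nucleus weighed the same, against 19.1% of all genes. Epha3 had 28.5 CPM under the scaffold, from 9 UMIs, against 271 CPM in untreated cord (0.105, 0.0474 to 0.204). Its centred log2 ratio of -3.28 was -1.32 when the doublet rate was doubled and -0.83 with nuclei named by marker score, so the size of this difference varied with these settings. Efna5 had 82.5 CPM under the scaffold against 259 CPM in untreated cord (0.318, 0.203 to 0.481), but 1 untreated nucleus held 40.4% of the 188 untreated UMIs. Slit2 had 130.0 CPM under the scaffold against 356 CPM in untreated cord (0.366, 0.256 to 0.51), and its centred log2 ratio of -1.48 was -0.28 when each nucleus weighed the same. Robo1 had 403 CPM under the scaffold against 770.4 CPM in untreated cord (0.523, 0.428 to 0.635). Efnb2, the arterial ligand that marks these nuclei, did not separate, with 225 CPM under the scaffold and 211 CPM in untreated cord (1.07, 0.794 to 1.42). Endothelial markers summed to 0.966 times and macrophage markers to 3.51 times their untreated level.

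Fibroblast nuclei, 356 under the scaffold and 657 in untreated cord, had 7 of 22 guidance genes past the fold lower, against 14.2% of all genes, and 3 higher, against 14.3%. Those past it lower numbered 15 without nuclei of mixed markers, against 17.2% of all genes, and 12 at Leiden resolution 0.5, against 16.1%. Epha3 had 412 CPM under the scaffold against 749 CPM in untreated cord (0.55, 0.466 to 0.646), and its ligand Efna5 had 407 CPM against 734 CPM (0.555, 0.47 to 0.653). In the Col2a1 and Tnn cluster described below, which held most fibroblast Efna5 UMIs, Efna5 was not lower (1.1, 0.916 to 1.31). It was lower in the Ptgds and Igf2 cluster (0.489, 0.272 to 0.84) and in the Slc6a13 and Slc6a20 cluster (0.369, 0.14 to 0.824). Epha3 was lower in the Col2a1 and Tnn cluster (0.585, 0.451 to 0.748) but level in the Ptgds and Igf2 cluster (1.02, 0.75 to 1.39). In the Slc6a13 and Slc6a20 cluster Epha3 was not among the genes past the fold. Slit2 had 373 CPM under the scaffold against 644 CPM in untreated cord (0.578, 0.486 to 0.685), while Slit3, with 785 CPM against 699 CPM, was not past the fold. Efnb1, Dcc and Epha5 were higher under the scaffold, at ratios of 1.71 (1.14 to 2.53), 1.83 (1.34 to 2.49) and 2.05 (1.22 to 3.42). All 3 turned to a ratio below the median gene with nuclei of at least 500 genes, where the centred log2 ratios were -0.56 for Efnb1, -0.10 for Dcc and -0.23 for Epha5. Fibroblast markers summed to 0.693 times and macrophage markers to 3.27 times their untreated level.

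The fibroblasts fell into 3 clusters with different guidance genes. A cluster led by Col2a1 and Tnn, the genes of cartilage collagen and tenascin-N, had the highest Efna5 and Slit3 of the 3 in every library. Its Efna5 level was 3136 CPM under the HGF scaffold, 1319 CPM under the scaffold and 1203 CPM in untreated cord, from 48, 62 and 259 nuclei. It made up 62 of 356 fibroblast nuclei under the scaffold and 259 of 657 in untreated cord. The part of this share in the fibroblast Efna5 and Epha3 ratios of scaffold over untreated was not tested. The Slit3 level of the cluster was 1689.8 CPM under the HGF scaffold, 2577 CPM under the scaffold and 1042 CPM in untreated cord, and the scaffold over untreated ratio was 2.47 (2.15 to 2.83). Slit3 was thus higher under the scaffold in this cluster, where 10 of 20 guidance genes were past the fold lower, against 21.4% of all genes, and 2 higher, against 18.3%. Robo2 had 44.0 CPM under the scaffold, from 5 UMIs, against 266 CPM in untreated nuclei of the cluster (0.165, 0.0531 to 0.393). Epha3 had 616 CPM under the scaffold against 1052 CPM in untreated cord (0.585, 0.451 to 0.748).

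A cluster led by the transporter genes Slc6a13 and Slc6a20, 28, 95 and 161 nuclei in the HGF scaffold, scaffold and untreated libraries, was that of Robo1 and Epha7. Robo1 stood at 1877, 2119 and 2754 CPM in those libraries. Epha7 stood at 339 CPM under the HGF scaffold, 444 CPM under the scaffold and 766 CPM in untreated cord, with a scaffold over untreated ratio of 0.58 (0.426 to 0.778). Here 4 of 16 guidance genes were past the fold lower, against 15.3% of all genes, and 3 higher, against 18.0%. A cluster led by Ptgds and Igf2, the genes of a prostaglandin synthase and a growth factor, held 24, 199 and 237 nuclei and had the highest Efnb1 of the 3, at 228, 171 and 124 CPM. Its Slit2 level was 365 CPM under the HGF scaffold, 363 CPM under the scaffold and 756 CPM in untreated cord (scaffold over untreated 0.48, 0.361 to 0.632). Its Epha7 had 0 UMIs under the HGF scaffold, 42.7 CPM under the scaffold and 193 CPM in untreated cord (scaffold over untreated 0.221, 0.0912 to 0.465). In this cluster 8 of 17 were past the fold lower, against 14.9% of all genes, and 2 higher, against 15.4%.

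A cluster whose leading genes include the transporters Slc26a7 and Slc47a1 took no name from the marker lists, and it held high levels of both secreted ligands Slit2 and Ntn1. Its 48, 96 and 190 nuclei had Slit2 at 1634 CPM under the HGF scaffold, 1906 CPM under the scaffold and 2499.6 CPM in untreated cord. They held 25.2%, 20.2% and 27.0% of the Slit2 UMIs of their libraries, and 33.3%, 18.9% and 23.7% of the Ntn1 UMIs. Ntn1 was close to level, at 1009.6 CPM under the HGF scaffold, 975 CPM under the scaffold and 1086 CPM in untreated cord. Of 15 guidance genes in the cluster, 1 was past the fold lower under the scaffold than in untreated cord, against 14.6% of all genes, and 2 were higher, against 15.1%. Unc5c was the lower one, with 184 CPM under the scaffold against 348 CPM in untreated cord (0.529, 0.349 to 0.782).

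**Figure D4:**
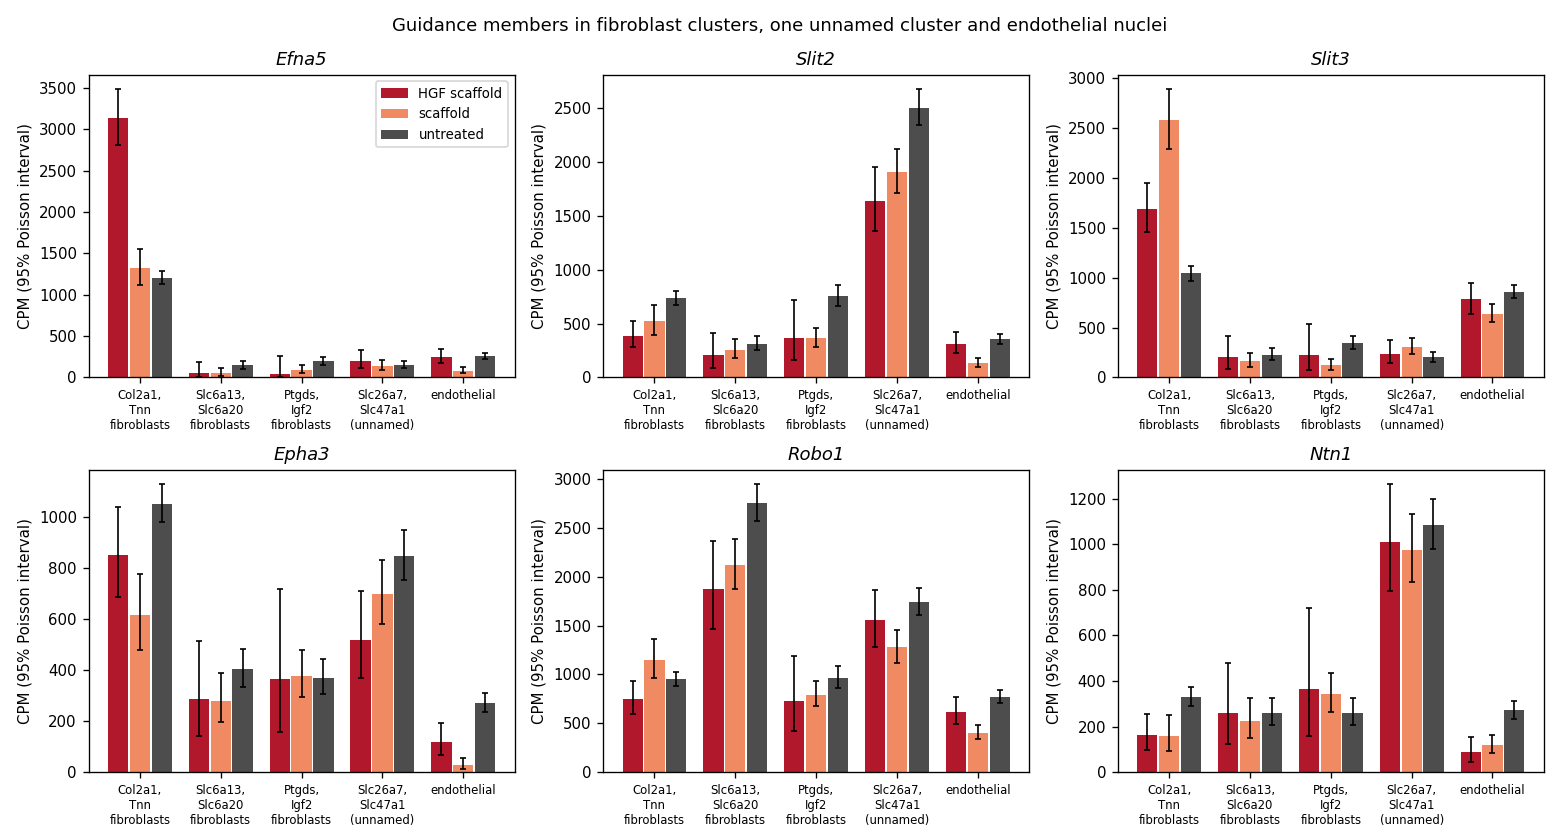
CPM of Efna5, Slit2, Slit3, Epha3, Robo1 and Ntn1 in 3 fibroblast clusters, an unnamed cluster and endothelial nuclei, HGF scaffold, scaffold and untreated libraries side by side, with 95% Poisson intervals. Efna5 and Slit3 are highest in the Col2a1 and Tnn cluster, Slit2 and Ntn1 in the unnamed cluster, and Robo1 in the Slc6a13 and Slc6a20 cluster.

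Microglia or macrophages had low levels of most guidance genes, and different clusters held most of them in the libraries: a cluster led by Alpk3 and Slc2a5 in untreated cord, and a cluster led by Msr1 and Arg1 under both scaffolds. Of 15 guidance genes, 8 were past the fold lower under the scaffold than in untreated cord, against 19.1% of all genes, and 0 higher, against 19.0%. Unc5c had 179.7 CPM under the scaffold against 414 CPM in untreated cord (0.434, 0.339 to 0.56), Slit2 had 199.6 CPM against 444 CPM (0.449, 0.354 to 0.573), and Efna5 had 45.2 CPM against 108 CPM (0.419, 0.254 to 0.707). Within the Alpk3 and Slc2a5 cluster, 2 of 8 were past the fold lower, against 14.4% of all genes, and 0 higher, against 13.8%.

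The addition of HGF to the scaffold could be followed in 4 lineages, where 23 of 59 measurements were past the fold lower than under the scaffold alone, against 15.7% of those of all genes, and 14 were past it higher, against 13.2%. Among genes with at least 30 UMIs and an interval without 1, the highest of these ratios was that of Efna5 in fibroblasts. Their Efna5 level was 2047 CPM under the HGF scaffold, from 100 nuclei, against 407 CPM under the scaffold and 734 CPM in untreated cord. The HGF scaffold level was 5.02 (4.18 to 6.06) times the scaffold level and 2.79 (2.46 to 3.16) times the untreated level. The Col2a1 and Tnn cluster made up 48 of 100 fibroblast nuclei under the HGF scaffold, 62 of 356 under the scaffold and 259 of 657 in untreated cord, and the part of this share in the ratio was not tested. That cluster held 347 of the 350 fibroblast Efna5 UMIs under the HGF scaffold, 150 of 175 under the scaffold and 878 of 983 in untreated cord. The centred log2 ratio of HGF scaffold over scaffold was 2.39, and it ranged from 1.64 to 2.55 over the alternatives. Slit3 had 1169.9 CPM under the HGF scaffold against 785 CPM under the scaffold (1.49, 1.25 to 1.78) and 699 CPM in untreated cord (1.67, 1.43 to 1.95). At Leiden resolution 0.5 its centred log2 ratio over the scaffold was 0.01, against 0.63 as first clustered. Within the Col2a1 and Tnn cluster Slit3 stood the other way round, at 1689.8 CPM under the HGF scaffold against 2577 CPM under the scaffold, while Efna5 was higher there too, at 3136 CPM against 1319 CPM. Epha3 had 661 CPM under the HGF scaffold against 412 CPM under the scaffold (1.6, 1.26 to 2.04). The Col2a1 and Tnn cluster held 70 of 177 fibroblast Epha3 UMIs under the scaffold and 768 of 1004 in untreated cord. The part of its share in the Epha3 ratio was not tested. In all, 6 of 19 guidance genes were past the fold higher in fibroblasts under the HGF scaffold than under the scaffold, against 14.6% of all genes, and 7 were lower, against 19.2%. Fibroblast markers summed to 1.36 times and macrophage markers to 0.851 times their scaffold level.

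Among the lower fibroblast genes were receptors of netrin. Dcc had 58.5 CPM under the HGF scaffold, from 10 UMIs, against 158 CPM under the scaffold (0.369, 0.17 to 0.722). Neurons of the scaffold library had 1111 CPM, and the part of neuronal UMIs in the fibroblast levels was not tested. Unc5d had 46.8 CPM under the HGF scaffold against 114 CPM under the scaffold (0.41, 0.168 to 0.873), and Unc5c had 181 CPM against 391 CPM (0.464, 0.305 to 0.683). Against untreated fibroblasts, 10 of 22 genes were past the fold lower under the HGF scaffold, against 20% of all genes, and 5 were higher, against 17.0%. Relative to untreated cord, macrophage markers under the HGF scaffold summed to 2.78 times in fibroblasts, 2.92 times in endothelium and 2.6 times in oligodendrocytes, and their part in the ratios to untreated cord was not tested. Robo2 had 205 CPM under the HGF scaffold against 479.9 CPM in untreated fibroblasts (0.427, 0.295 to 0.6), and Epha7 had 117 CPM against 256 CPM (0.457, 0.276 to 0.717).

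Endothelial nuclei under the HGF scaffold, 60 in number, had 3 of 13 genes past the fold lower than under the scaffold, against 17.4% of all genes, and 5 higher, against 15%. Efna5 had 246 CPM under the HGF scaffold against 82.5 CPM under the scaffold (2.98, 1.73 to 5.2). Efnb2 had 112 CPM, from 15 UMIs, against 225 CPM (0.497, 0.264 to 0.875), and its centred log2 ratio of -0.98 was -0.12 when the doublet rate was doubled. Unc5c had 179 CPM under the HGF scaffold against 365 CPM under the scaffold (0.491, 0.302 to 0.767). Slit2, with 313 CPM against 130.0 CPM, and Robo1, with 619 CPM against 403 CPM, had ratios of 2.41 (1.53 to 3.8) and 1.54 (1.15 to 2.04), and both turned below the median gene without nuclei of mixed markers, at centred log2 ratios of -0.43 for Slit2 and -0.09 for Robo1. Against untreated endothelium, 7 of 18 genes were past the fold lower under the HGF scaffold, against 22.0% of all genes, and 0 higher, against 18.8%. Among these were the netrin genes Unc5c, 179 CPM against 564 CPM (0.318, 0.201 to 0.479), and Ntn1, 89.5 CPM against 271 CPM (0.33, 0.167 to 0.589).

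Oligodendrocytes, 103 under the HGF scaffold, had 5 of 12 genes past the fold lower than under the scaffold, against 17.4% of all genes, and 2 higher, against 13.0%. Their leading guidance gene Unc5c was level, with 1551 CPM under the HGF scaffold and 1582 CPM under the scaffold (0.98, 0.844 to 1.14), and both were under the untreated level of 2255 CPM. Robo1 had 419.8 CPM under the HGF scaffold against 258 CPM under the scaffold (1.63, 1.19 to 2.21), and its centred log2 ratio of 0.75 was -0.64 with nuclei named by marker score. Slit3 had 40.6 CPM under the HGF scaffold, from 6 UMIs, against 124 CPM under the scaffold (0.329, 0.117 to 0.754). Against untreated oligodendrocytes, 8 of 12 genes were past the fold lower, against 17.6% of all genes, and 0 higher, against 16.8%. In microglia or macrophages, 8 of 15 genes were past the fold lower under the HGF scaffold than under the scaffold, against 11% of all genes, and 1 higher, against 11.1%. That gene was Efna5, with 102 CPM under the HGF scaffold against 45.2 CPM under the scaffold (2.26, 1.51 to 3.39), and its centred log2 ratio of 1.18 was -0.10 at Leiden resolution 0.5. Dcc had 29.7 CPM under the HGF scaffold against 90.3 CPM under the scaffold (0.329, 0.181 to 0.561), and Robo2 had 33.4 CPM against 86.7 CPM (0.386, 0.219 to 0.642). These nuclei should lack Dcc, and neurons gave 5.02% of UMIs under the HGF scaffold against 20.02% under the scaffold. The part of UMIs from other nuclei in these low levels was not tested. Against untreated microglia or macrophages, 9 of 11 genes were past the fold lower, against 19.9% of all genes, and 0 higher, against 19.5%. Within the Msr1 and Arg1 cluster alone, with 285 nuclei under the HGF scaffold and 360 under the scaffold, 10 of 14 were past the fold lower, against 12.5% of all genes, and 0 higher, against 10.7%. Efna5 was among the lower ones there, with 20.4 CPM under the HGF scaffold, from 8 UMIs, against 32.0 CPM under the scaffold (0.636, 0.251 to 1.43), the opposite direction to the lineage. Within the Lyz2 and Spp1 cluster, 4 of 7 were lower, against 15.3%, and 1 was higher, Efna5, with 409 CPM against 148 CPM (2.76, 1.53 to 5.23), against 16.3%. The leading genes of that cluster include 4 fibroblast markers, Col1a1, Col1a2, Lum and Postn, and their part in the Efna5 ratio was not tested.

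Other genes of these pathways were taken from 4 lists of adaptors, partners and co-receptors. Over all nuclei, scaffold against untreated cord, 2 of 17 Eph receptor adaptors and exchange factors were past the fold lower, against 15.3% of all genes, and 3 higher, against 13.5%. The partners of Slit and Robo had 4 of 13 lower and 2 higher, those of the netrin receptors 5 of 15 lower and 1 higher, and the netrin-G genes and their ligands 2 of 5 lower and 0 higher. The higher ones in these lists were Sdc1, Tiam1, Cblb, Vav3, Srgap2 and Anks1a. The share of microglia or macrophage nuclei moved with these sums, and its part in them was not tested. Sdc1, a heparan sulfate proteoglycan that binds Slit, had 113 CPM under the HGF scaffold, 86.1 CPM under the scaffold and 15.9 CPM in untreated cord (scaffold over untreated 5.43, 4.33 to 6.87). Tiam1, a Rac exchange factor that binds Eph receptors, had 103 CPM under the scaffold against 35.9 CPM in untreated cord (2.86, 2.44 to 3.37). Srgap2, a Rac GTPase-activating protein that binds Robo, had 1131 CPM under the scaffold against 695 CPM in untreated cord (1.63, 1.56 to 1.69). Flrt2, Nell2 and Dscam were among the lower ones. Flrt2, a repellent ligand of UNC5 receptors, had 178 CPM under the scaffold against 345 CPM in untreated cord (0.517, 0.478 to 0.558). Nell2, a Robo3 ligand, had 46.9 CPM under the scaffold against 92.8 CPM (0.506, 0.434 to 0.588), and Dscam, a netrin co-receptor, had 363 CPM against 545 CPM. Under the HGF scaffold relative to the scaffold, where 12.4% of all genes were lower and 7.19% higher, the counts were 3 of 17 lower for the Eph receptor adaptors, 4 of 13 lower and 1 higher for the Slit and Robo partners, 3 of 15 lower for the netrin receptor partners and 2 of 5 lower for the netrin-G list. The higher gene was Gpc1, a glypican that binds Slit, with 27.9 CPM under the HGF scaffold against 18.0 CPM under the scaffold (1.55, 1.05 to 2.26). Against untreated cord, where 22.5% of all genes were lower and 17.6% higher, the HGF scaffold library had 5 lower and 2 higher, 4 lower and 2 higher, 8 lower and 1 higher, and 4 lower and 0 higher in the lists in that order.

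In none of the 8 guidance genes under 50 UMIs did the highest lineage separate from the next. Efna4 and Ephb6 had 42 UMIs each over the 3 libraries, Unc5a 46, Epha1 15, Ntn3 13, Robo3 7 and Ntn5 3. Unc5a, a netrin receptor, had 16 of its UMIs in scaffold neurons (69.6%) and 18 in untreated neurons (85.7%), at 14.4 CPM in each. Robo4, the Robo of vessels, had 0 UMIs, which allows a level of up to 2.09 CPM in the HGF scaffold library, 0.539 CPM in the scaffold library and 0.523 CPM in the untreated library, at a limit of 3 counts.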

How the data were processed

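Nuclei of 3 rat spinal cord libraries were read as counts of UMIs per gene and nucleus, as the authors deposited them. Libraries were made with 10x Genomics 3′ gel beads, per the labels' protocols, and the submitters' processing notes name Cell Ranger 6.0.1 as the pipeline. The genome build and annotation are not given in the sources used here. Nuclei with under 200 genes or over 5% mitochondrial counts were left out, and the highest Scrublet scores were removed at 0.8% per 1000 nuclei, 86 nuclei in all. With scanpy 1.11.5, counts were scaled to 10000, and 2000 variable genes without the guidance genes, 30 principal components, 15 neighbours and Leiden resolution 1 gave clusters, named from 18 marker lists by at least 3 markers among 100 leading genes. UMIs were summed per lineage and library. Lineages with at least 50 nuclei in both libraries were compared, and named members have at least 30 UMIs there and an interval without 1, up to 3 in each direction, beside those described by lineage. Ratio intervals are exact (conditional Clopper-Pearson, scipy 1.17.1), level intervals exact Poisson. Gene members and lists were chosen with earlier results of these data known. The calculation was tested on simulated data. Alternatives changed the doublet, gene and UMI limits, the clustering, the naming, the weighting of nuclei and the lineage make-up. Strand and reads shared between paralogs could not be checked. A further list of 8 pathway genes is not reported here.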

Additional observations from a re-analysis of the deposited data

Results flagged for a closer look

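In 6 cases a guidance gene was past the fold higher in 1 lineage and past it lower in another under the same contrast, each with an interval without 1. In none of them was the difference between the lineages tested. Dcc was at 1.83 times its untreated level in scaffold fibroblasts and at 0.633 times in scaffold neurons, ratios that stand 2.89-fold apart. Epha5 was at 2.05 times in scaffold fibroblasts and at 0.554 times in scaffold neurons, 3.71-fold apart. The fibroblast side of both turned below the median gene with nuclei of at least 500 genes. Unc5d was at 3.21 times its untreated level in scaffold oligodendrocytes and at 0.597 times in scaffold neurons, 5.38-fold apart.

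Slit3 under the HGF scaffold was at 1.49 times its scaffold level in fibroblasts and at 0.329 times in oligodendrocytes, 4.53-fold apart. Against untreated cord Slit3 was at 1.67 times in fibroblasts and at 0.269 times in oligodendrocytes, 6.22-fold apart. The oligodendrocyte side of Slit3 rests on 6 UMIs under the HGF scaffold. Its fibroblast side over the scaffold had a centred log2 ratio of 0.01 at Leiden resolution 0.5, and within the Col2a1 and Tnn cluster Slit3 stood lower, at 1689.8 CPM under the HGF scaffold against 2577 CPM under the scaffold. Epha3 under the HGF scaffold was at 1.60 times its scaffold level in fibroblasts and at 0.245 times in oligodendrocytes, 6.55-fold apart, the oligodendrocyte value resting on 2 UMIs.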

How the results depend on the processing

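No paired analysis was possible because each condition is 1 library. Depth limits the HGF scaffold library most, and in every library the 8 guidance genes under 50 UMIs. Of 1674 values of single genes under alternatives, 1373 moved by less than their counting interval, 253 moved by more, and 48 changed sign. The causes of these changes were not tested.

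Over all nuclei, the lineage make-up of the library under the ratio, given to both, left 10 lower genes for scaffold over untreated, 1 lower and 7 higher (median log2 0.19) for HGF scaffold over scaffold, and 6 lower and 2 higher (median -0.26) for HGF scaffold over untreated. The cluster make-up left 9 lower (median -0.36), 1 lower and 6 higher (median 0.19), and 4 lower and 1 higher (median -0.33) for the same comparisons. With each nucleus weighing the same, scaffold over untreated had 11 lower and 2 higher (median -0.40), and HGF scaffold over untreated had 1 higher. Without microglia or macrophages and unnamed nuclei, scaffold over untreated had 10 lower and 2 higher (median -0.34), and HGF scaffold over untreated had 13 lower. Without nuclei of mixed markers, HGF scaffold over scaffold had 1 higher, and with a minimum of 10 UMIs, HGF scaffold over untreated had 1 higher. Genes highest in the same lineage in all 3 libraries numbered 2 with nuclei of at least 1000 UMIs, 2 at Leiden resolution 0.5, 3 at resolution 2 and 2 by marker score.

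The following centred log2 ratios changed sign. Under both make-up settings, the neuronal part of the HGF scaffold values rests on 33 nuclei. For HGF scaffold over scaffold over all nuclei, lineage and cluster make-up gave 0.19 and 0.18 for Dcc, 0.78 and 0.83 for Epha10, 0.087 and 0.061 for Epha7, 0.20 and 0.17 for Robo2, 0.0080 and 0.059 for Slit1, and 0.62 and 0.64 for Unc5d. For HGF scaffold over untreated they gave 0.22 and 0.072 for Efna5, 0.67 and 0.64 for Efnb3, 0.52 and 0.46 for Epha10, 0.14 and 0.089 for Ntn4, and 0.049 and 0.087 for Unc5d. Without microglia or macrophages and unnamed nuclei this comparison gave 0.047 for Efna5 and 0.057 for Efnb3. Cluster make-up gave 0.066 for Ephb3 in scaffold over untreated.

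In fibroblasts, scaffold over untreated, Epha5 was -0.49 at Leiden resolution 0.5, -0.054 at resolution 2, -0.23 with at least 500 genes and -0.24 without mixed markers. Efnb1 was -0.30, -0.35, -0.56 and -0.60 under these settings and -0.46 by marker score, and Dcc was -0.10 with at least 500 genes. In endothelium, HGF scaffold over scaffold, Slit2 was -0.64 at resolution 2, -0.26 at 2 times the doublet rate, -0.14 with the guidance genes among the clustering genes and -0.43 without mixed markers. Robo1 was -0.26 at resolution 2, -0.061 at 2 times the doublet rate, -0.13 with each nucleus weighing the same, -0.10 by marker score, -0.17 with at least 1000 UMIs and -0.086 without mixed markers. By marker score Robo1 was -0.64 in oligodendrocytes (HGF scaffold over scaffold) and 0.0042 in oligodendrocyte precursors (scaffold over untreated), and Efna5 in microglia or macrophages was -0.10 at resolution 0.5 (HGF scaffold over scaffold).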
